A study of Sus scrofa with 24 samples.

Results

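The 8 libraries described here are the flagellin cultures of a series of 24: 4 were taken 24 h after flagellin was added and 4 were taken 2 h after it, and all 8 were chosen by their labels. The cells were bronchial epithelial cells of wild-type pigs 1 month old, freed by enzyme digestion, seeded on collagen-treated permeable membranes and differentiated at an air-liquid interface. Every culture was first held for 1 h with DMSO, the vehicle of an inhibitor used elsewhere in the series, and then received 100 ng/ml flagellin. Set beside them were 4 cultures at 24 h and 4 at 2 h that had the same DMSO preincubation and then PBS in place of flagellin. They show the change over the same hours in culture without the ligand. The other 8 libraries had 20 µM of the p38 MAP kinase inhibitor SB203580 before flagellin. They entered no comparison, but helped to set the count filter, the scaling, the spread and the terms for replicate number in the fit. The labels do not say whether the 4 replicates of a group are separate animals or separate cultures, so the p-values reflect only how these libraries vary, and part of that variation may be technical.

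Flagellin is the building block of the bacterial flagellum and is bound by TLR5, a receptor that airway epithelial cells carry on their surface. TLR5 signals through MYD88, the IRAK kinases and TAK1 to NF-kB and to the MAP kinases, which switch on chemokine and cytokine genes within hours. Among the genes that NF-kB switches on are its own inhibitors, such as NFKBIA and TNFAIP3, and the RNase ZC3H12A, which degrades inflammatory mRNAs, so this transcript response is known to be brief.

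The 8 flagellin libraries held 31941187 to 36267289 counts in pig genes, against 26345945 to 36267289 over all 24, and 15903 to 16449 pig genes had a count. Levels are given as CPM, a gene's count scaled to a fixed total of pig counts per library, adjusted by a TMM scaling factor. These factors, estimated for each library, were 0.836 to 1.07 over all 24. A gene with no count may have had up to 3 counts, which is 0.0827 to 0.0939 CPM in these 8 libraries. That floor, EIF1AY and the features that are not pig genes are given in CPM without the factor. Such floors cover counting error only. The Y-linked gene EIF1AY was at 15.4 to 22.1 CPM in replicates 1 and 2. In replicates 3 and 4 it was at no more than 0.0297 CPM. Each group of 4 thus held 2 libraries of each of 2 sets. The sets came from different animals, and sex, read from this gene, went with the set. The labels do not give the number of animals, and the 4 libraries of a group may come from as few as 2. In a principal component analysis of the 8 libraries, the first component (53.1% of the variance) parted these sets and the second (21.6%) parted the times. Replicate 2 at 24 h stood apart from replicate 1 of its set, with a chi-square per gene of 195 between them, against 10.8 to 38.1 for the other same-set pairs of these groups. Because each 24 h library was matched with the 2 h library of the same number, the model carried a term for replicate number.

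Bronchial epithelial genes were present in every library. The basal cell regulator TP63 was at 38.0 to 90.4 CPM at 24 h and 70.4 to 108 CPM at 2 h, and the ciliated cell regulator FOXJ1 was at 1.53 to 18.3 CPM at 24 h and 4.05 to 22.8 CPM at 2 h. The club cell secretoglobin SCGB1A1 had counts in replicates 1 and 2 at both times but was at 0 in replicates 3 and 4 at 24 h, and at 0.25 and 0.0566 CPM in replicates 3 and 4 at 2 h. Of 24 leukocyte markers, 6 had no count in any of the 8 libraries, CD3E of T cells and MS4A1 of B cells among them, and PTPRC, which all leukocytes carry, did not exceed 0.113 CPM. The summed level of these 24 leukocyte markers was 32.1 to 54.2 CPM at 24 h and 30.4 to 70.2 CPM at 2 h. Of the 10 tested, CD68 and SPI1 of myeloid cells rose (adjusted p = 0.00083 and 0.0031 by edgeR), CD68 by 1.41 (SE 0.25). CD14 fell, by 1.46, so 30% of the 10 were called (adjusted p below 0.05 by edgeR), against 18.8% of all genes. The SPI1 and CD14 calls were lost without the term for replicate number described above (adjusted p 0.153 and 0.274). Of 13 fibroblast and smooth muscle markers tested, COL1A1 and MYH11 rose and FAP fell (23.1% called, against 18.8% of all genes). The summed level of the 18 such markers matched was 256 to 439 CPM at 24 h and 326 to 394 CPM at 2 h. The COL1A1 and FAP calls were lost without the term for replicate number (adjusted p = 0.251 and 0.183 by edgeR), and that of FAP also without flagellin 24 h replicate 2 (0.0536) or 2 h replicate 3 (0.0502). Of 6 endothelial markers tested PECAM1, KDR and TIE1 rose, by 0.97, 0.85 and 0.93 (50% called, against 18.8% of all genes). The summed level of the 13 such markers matched was 242 to 468 CPM at 24 h and 163 to 241 CPM at 2 h, mostly from KDR. The KDR and TIE1 calls were lost without each of 4 single libraries (adjusted p 0.0504 to 0.11 by edgeR), and that of KDR without the term for replicate number (0.164). The part of these markers in the results was not tested. Since these are bulk libraries, fewer cells of a type and less RNA per cell cannot be told apart.

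The first question is what changed between 2 h and 24 h in the presence of flagellin. In edgeR's quasi-likelihood test, with Benjamini-Hochberg adjustment over 14172 pig genes, 2664 genes had an adjusted p below 0.05. Such genes are called below. This was 18.8% of the genes tested, and 1352 of them rose (9.54%) and 1312 fell (9.26%). Among called genes, 247 rose (1.74%) and 334 fell (2.36%) by at least 2-fold. The groups did not overlap for 1070 genes that were higher at 24 h (7.55%) and 1009 that were lower (7.12%). The changes are given as log2 fold changes of 24 h over 2 h, and their median over all genes tested was -0.003. Without the term for replicate number 1120 genes were called, all of them among the 2664. With only the 8 flagellin libraries fitted 471 genes were called, 464 of them among the 2664. Fitted alone, replicates 1 and 2 gave 1280 calls and replicates 3 and 4 gave 4128. Leaving out the 2 libraries of the DMSO groups that were low in ciliated and secretory markers (flagellin 24 h replicate 2 and PBS 2 h replicate 2) left 2523 calls.

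In the PBS cultures, which share no library with the flagellin cultures, 3183 genes were called over the same hours (22.5%), 1565 of them raised (11%) and 1618 lowered (11.4%). The count was 1440 without the term for replicate number. Both comparisons called 1785 genes, which is 67.0% of the calls with flagellin and 56.1% of those with PBS. Of these genes, 947 rose in both, 836 fell in both and 2 moved in opposite directions. A further 879 genes were called with flagellin alone and 1398 with PBS alone, but a call in 1 comparison and not in the other does not show a difference between them. The test of the difference itself called 27 genes (0.191%), where 632 (4.46%) had an unadjusted p below 0.05, and in all 27 the value at 24 h relative to 2 h was lower with flagellin than with PBS. Of the 27 genes, 24 were among those that fell with flagellin.

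**Figure D1:**
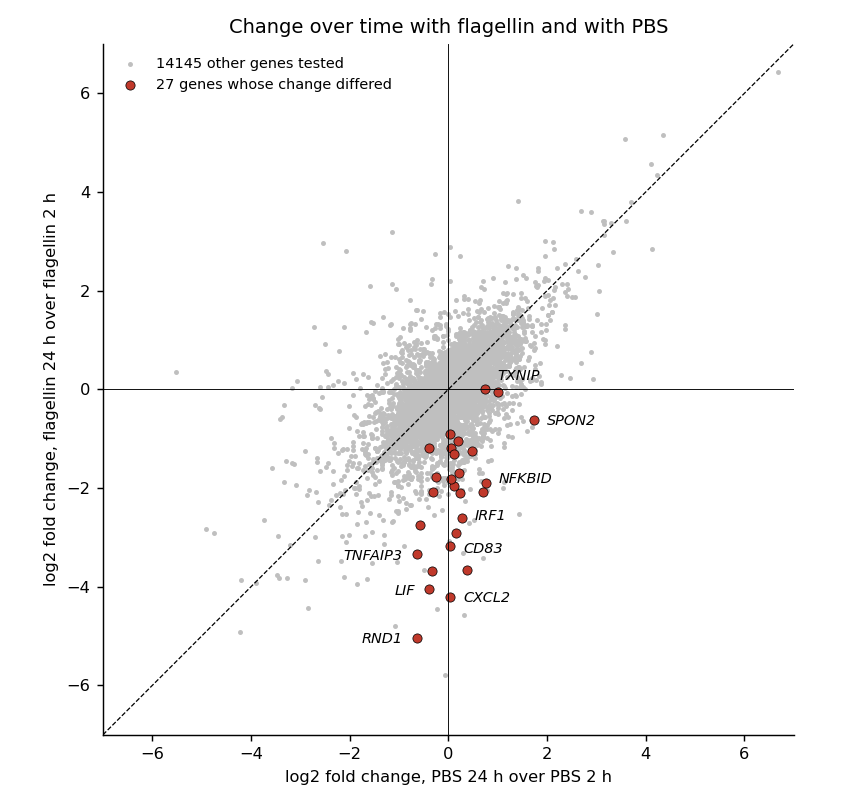
Log2 fold change of 24 h over 2 h for 14172 genes, with PBS on the horizontal axis and with flagellin on the vertical axis. Grey points are genes whose 2 changes were not called different, red points are the 27 whose change differed by edgeR's test, and the dashed line marks equal change. All 27 red points lie below the line, and most lie near 0 on the PBS axis.

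Chemokine genes that draw neutrophils and monocytes fell over these hours with flagellin. CXCL8, a neutrophil chemoattractant, was at 140, 130, 17.7 and 17.7 CPM in replicates 1 to 4 at 24 h, against 608, 617, 755 and 638 CPM at 2 h. All 4 libraries at 24 h lay below all 4 at 2 h. The PBS cultures at 24 h held 30.6, 44.9, 8.01 and 15.9 CPM. Each flagellin library at 24 h was thus above the PBS library of the same number, by little in replicate 4. The log2 fold change was -3.66 (SE 0.58, adjusted p = 0.00032 by edgeR's quasi-likelihood test) with flagellin and -0.48 (SE 0.53, adjusted p = 0.55) with PBS. The difference between these changes was -3.18, and it was not called (SE 0.76, adjusted p = 0.17).

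CXCL2, another ligand of the neutrophil receptor CXCR2, was at 101, 46.7, 13.7 and 12.5 CPM at 24 h, against 699, 647, 433 and 355 CPM at 2 h. It was lower at 24 h in each of the 4 pairs and the groups did not overlap. It fell by 4.20 on the log2 scale with flagellin (SE 0.47, adjusted p = 1.3e-05 by edgeR), against a change of 0.04 (SE 0.42) with PBS. The pig CXC chemokine AMCF-II (alveolar macrophage chemotactic factor) was at 19.2, 6.83, 1.38 and 1.16 CPM at 24 h, against 57.3, 51.7, 90.2 and 92.7 CPM at 2 h, again with no overlap. Its fall of 4.44 (SE 0.94, adjusted p = 0.0033 by edgeR) was not called without the term for replicate number (adjusted p = 0.0665) or in replicates 1 and 2 alone (0.0801). That call was also lost with only the 8 flagellin libraries fitted. In the deposited table CXCL8 spans bases 69932644 to 69935861 of chromosome 8, AMCF-II 70007995 to 70010425, and CXCL2 70054756 to 70163415. The unnamed gene ENSSSCG00000008954, at 70141611 to 70149557, lies inside the span of CXCL2. Reads of these related and partly overlapping genes may have been shared, so their separate levels are uncertain.

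CCL2, which draws monocytes, was at 13.8, 2.65, 1.96 and 2.67 CPM at 24 h, against 58.9, 59.5, 42.6 and 31.7 CPM at 2 h. Replicate 1 was the highest library at 24 h and still lay below every library at 2 h. CCL2 fell by 3.68 with flagellin (SE 0.44, adjusted p = 2.2e-05 by edgeR) and its log2 change with PBS was -0.33 (SE 0.40, adjusted p = 0.59). CCL20, which draws dendritic cells and lymphocytes and was named here by its position in the RefSeq annotation, was at 40.3, 42.5, 1.35 and 1.48 CPM at 24 h, against 320, 271, 207 and 195 CPM at 2 h. It was lower at 24 h in all 4 pairs, with a log2 change of -4.80 (SE 0.80, adjusted p = 0.0005 by edgeR) that was not called without the term for replicate number (adjusted p = 0.0722). Of 16 chemokine genes matched by identifier, 12 passed the filter on low counts. Of these 12, 5 were called with flagellin (41.7%, against 18.8% of all genes), all of them falling. The median log2 change of the 12 was -0.935, against -0.003 over all genes tested. With PBS 1 of the 12 was called, also falling, and the median was -0.209. With flagellin 3 were called without the term for replicate number.

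Several cytokine genes fell. LIF, a cytokine of the IL-6 family, was at 12.3, 7.24, 3.37 and 2.33 CPM at 24 h, against 131, 107, 69.1 and 45.7 CPM at 2 h. No library at 24 h reached the level of any at 2 h, and the PBS cultures held 12.5, 8.14, 1.42 and 3.52 CPM at 24 h. LIF fell by 4.05 on the log2 scale (SE 0.38, adjusted p = 1.7e-06 by edgeR). IL1A, an epithelial alarm cytokine, was at 82.5, 84.6, 64.1 and 64.3 CPM at 24 h, against 321, 299, 353 and 310 CPM at 2 h. Both groups were tight, without overlap, and IL1A fell by 2.12 (SE 0.25, adjusted p = 1.8e-05 by edgeR). CSF1, the growth factor of macrophages, fell by 2.08 (SE 0.23, adjusted p = 8.2e-06 by edgeR), with means of 19.3 ± 7.62 CPM at 24 h and 79.0 ± 21.5 CPM at 2 h (SD, n = 4 each). The low-level gene IL20, a skin and airway cytokine of the IL-10 family, was at 0.791, 0.56, 0.241 and 0.0851 CPM at 24 h, against 5.14, 4.72, 1.84 and 3.91 CPM at 2 h, and fell by 3.49 (SE 0.52, adjusted p = 0.00019 by edgeR). The groups did not overlap.

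Of 18 cytokine and colony-stimulating factor genes tested, 9 fell and 1 rose with flagellin (55.6%, against 18.8% of all genes). Their median was -0.887. With PBS 2 fell, at a median of -0.307. Without the term for replicate number 5 of the 18 were called with flagellin, and without the 2 libraries low in ciliated markers 6 were. The 1 that rose, IL10, had at most 0.933 CPM in any flagellin library, with overlapping groups, and was not called without flagellin 24 h replicate 2 or flagellin 2 h replicate 1 or 2 (adjusted p 0.0592 to 0.146 by edgeR) or without the term for replicate number (0.16). CSF2, which drives granulocyte and macrophage growth, fell by 1.02 (SE 0.26, adjusted p = 0.010 by edgeR), though its groups overlapped. IL6 was near the floor in every library, at no more than 0.298 CPM at 24 h and 0.594 CPM at 2 h. Its call was lost without flagellin 24 h replicate 1 or 3 or flagellin 2 h replicate 1, 3 or 4 (adjusted p 0.0641 to 0.106 by edgeR), without the term for replicate number (0.186) and without the 2 libraries low in ciliated markers (0.0502). TNF, named by position, was at 4.49, 0.97, 0.181 and 0.0568 CPM at 24 h, against 33.3, 40.8, 6.15 and 2.44 CPM at 2 h. Every pair was lower at 24 h, the groups overlapped, and the log2 change of -4.58 (SE 0.71, adjusted p = 0.00025 by edgeR) was not called without the term for replicate number (adjusted p = 0.174). IL1B, also named by position, had no count in any library at 24 h and at most 0.0923 CPM at 2 h, and it was not tested.

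Genes for inhibitors of NF-kB itself fell as well. TNFAIP3 (A20), which removes ubiquitin chains from NF-kB signalling complexes, was at 154, 210, 85.6 and 80.2 CPM at 24 h, against 1454, 1455, 1180 and 941 CPM at 2 h. All 4 libraries at 24 h lay below those at 2 h, and the fall of 3.34 (SE 0.20, adjusted p = 6.3e-09 by edgeR) compared with a called fall of 0.64 (SE 0.18, adjusted p = 0.017) with PBS. NFKBIA, which holds NF-kB in the cytoplasm, was at 239, 259, 123 and 121 CPM at 24 h, against 1244, 1235, 564 and 332 CPM at 2 h. The 2 sets differed in level at both times, the groups did not overlap, and NFKBIA fell by 2.09 (SE 0.26, adjusted p = 2.7e-05 by edgeR). NFKBIE, a further inhibitor of this kind, fell by 1.24 with flagellin (SE 0.14, adjusted p = 1.3e-05 by edgeR) and rose by 0.49 with PBS (SE 0.14, adjusted p = 0.019). NFKBID, a nuclear inhibitor-like protein, did likewise, with a fall of 1.90 with flagellin (SE 0.19, adjusted p = 3.7e-06 by edgeR) and a rise of 0.76 with PBS (SE 0.19, adjusted p = 0.0088). These were the 2 genes of the whole table called in opposite directions in the 2 comparisons.

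Of 18 tested genes for NF-kB inhibitors and the A20 complex, 8 fell and 1 rose with flagellin, at a median of -0.199. With PBS 1 fell and 3 rose, at a median of 0.109. The called share was 50% with flagellin and 22.2% with PBS, against 18.8% and 22.5% of all genes. The difference between the 2 changes was called for 5 of the 18, NFKBIZ among them. NFKBIZ, an inducible nuclear cofactor of NF-kB, fell by 1.97 (SE 0.24, adjusted p = 2.3e-05 by edgeR), and the call was lost without the term for replicate number (adjusted p = 0.0615). BCL3, TNIP3 and OTUD1 also fell, by 1.81, 1.70 and 1.13. Of the 11 survival targets of NF-kB tested, 7 fell and 1 rose with flagellin, at a median of -0.660. With PBS 4 fell and 2 rose, at a median of -0.106. The called share was 72.7% with flagellin and 54.5% with PBS, against 18.8% and 22.5% of all genes. BIRC3, which ubiquitinates the RIP kinases and blocks cell death, was at 173, 172, 124 and 119 CPM at 24 h, against 464, 547, 518 and 437 CPM at 2 h. It fell by 1.77 (SE 0.12, adjusted p = 2.4e-08 by edgeR), with no overlap. IER3 fell by 1.81 and CFLAR, the caspase-8 inhibitor, by 0.74, while the anti-apoptotic BCL2L1 rose by 0.61 with flagellin and by 0.53 with PBS.

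**Figure D2:**
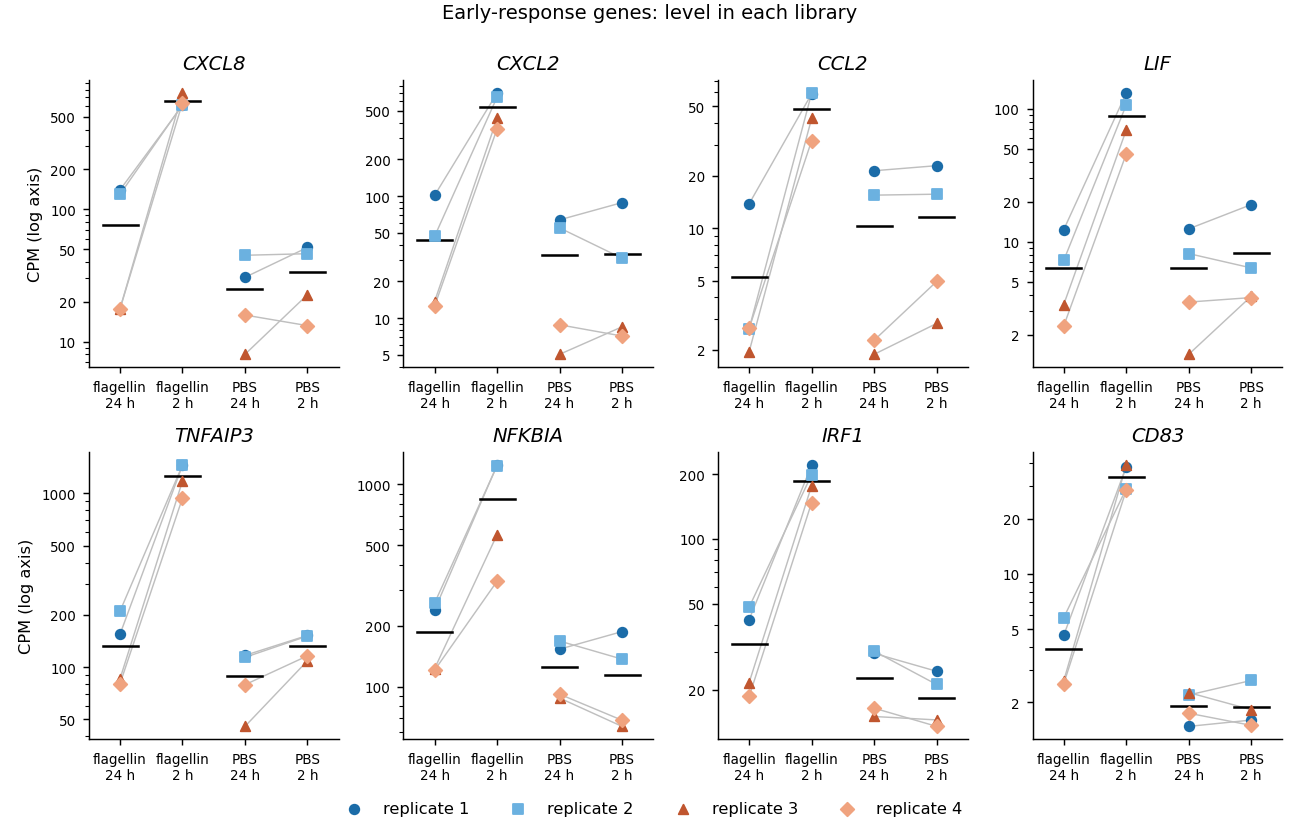
Level of 8 early-response genes in each library, in CPM on a log axis, for flagellin at 24 h and 2 h and PBS at 24 h and 2 h. Symbols mark the 4 replicates, grey lines join libraries of the same number and black bars are group means. In each panel every flagellin library at 24 h lies below every flagellin library at 2 h. The flagellin libraries at 24 h lie within about the range of the PBS libraries or above it.

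Among the subunits of NF-kB, NFKB1, the precursor of the p50 subunit, was at 70.5, 78.6, 72.8 and 72.4 CPM at 24 h, against 78.1, 75.9, 194 and 197 CPM at 2 h. The 2 libraries of replicates 3 and 4 at 2 h stood above the other 6. The fall of 0.79 (SE 0.25, adjusted p = 0.031 by edgeR) was not called without flagellin 24 h replicate 3 or 4 or flagellin 2 h replicate 3 or 4 (adjusted p 0.0993 to 0.131), nor without the term for replicate number (0.06). RELB, a subunit of the alternative pathway, showed the like pattern, at 32.7, 31.3, 23.4 and 22.0 CPM at 24 h and 36.5, 35.4, 54.9 and 54.7 CPM at 2 h. Its fall of 0.74 (SE 0.23, adjusted p = 0.029 by edgeR) was lost without the same 4 libraries (adjusted p 0.0873 to 0.125). Of 5 subunits tested these 2 were called (40%, against 18.8% of all genes), both falling. The median change of the 5 was -0.659 with flagellin and 0.061 with PBS.

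In the receptor pathway upstream of NF-kB, TLR5, the receptor itself, was at 1.19, 0.634, 2.38 and 1.70 CPM at 24 h, against 0.769, 0.782, 1.12 and 1.05 CPM at 2 h. It was higher at 24 h in 3 of 4 pairs, and the log2 change of 0.59 was not called (SE 0.27, adjusted p = 0.13 by edgeR). The change with PBS was 1.29 (SE 0.27, adjusted p = 0.0024), and the difference of -0.70 between them was not called (adjusted p = 1.0). MYD88, the adaptor of TLR5, rose by 0.46 with flagellin (SE 0.12, adjusted p = 0.010 by edgeR) and by 0.34 with PBS (SE 0.12, adjusted p = 0.040). PELI2 and IRAK3, an E3 ligase that acts on IRAK and a brake of the same kinases, rose by 0.69 and 0.91 with flagellin, and their changes with PBS were 0.41 and 0.58, not called. For both genes the difference between flagellin and PBS was not called either. MAP3K8, the kinase that links NF-kB signalling to ERK, was at 15.2, 25.4, 6.89 and 7.18 CPM at 24 h, against 149, 127, 58.3 and 38.9 CPM at 2 h. The groups did not overlap and MAP3K8 fell by 2.76 (SE 0.23, adjusted p = 3.5e-07 by edgeR). IRAK2, a kinase of the MYD88 complex, was at 25.5, 21.9, 4.3 and 5.25 CPM at 24 h, against 34.4, 28.1, 52.3 and 42.9 CPM at 2 h. Its fall of 2.00 (SE 0.55, adjusted p = 0.017 by edgeR) was not called without replicate 3 or 4 of either time (adjusted p 0.0586 to 0.0737) or without the term for replicate number (0.214). Of the 22 TLR5 and MYD88 pathway genes tested (27.3% called, against 18.8% of all genes), 4 rose and 2 fell with flagellin, at a median of 0.045, and 4 rose and 1 fell with PBS, at a median of 0.135. TLR2, the receptor of bacterial lipoproteins, was at 2.51, 0.746, 0.963 and 1.16 CPM at 24 h, against 5.26, 4.63, 5.00 and 5.61 CPM at 2 h. It fell by 2.05 (SE 0.29, adjusted p = 0.00012 by edgeR), with no overlap.

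Some of the surface molecules that epithelial cells show to leukocytes fell. CD83, a membrane protein best known from mature dendritic cells, was at 4.63, 5.78, 2.62 and 2.53 CPM at 24 h, against 38.3, 29.1, 39.1 and 28.6 CPM at 2 h. The PBS cultures held 1.48 to 2.26 CPM at 24 h and 1.5 to 2.63 CPM at 2 h, so the 24 h flagellin libraries lay above every PBS library in replicates 1 and 2 and at the top of the PBS range in replicates 3 and 4. CD83 fell by 3.17 (SE 0.26, adjusted p = 3.3e-07 by edgeR). ICAM1, the ligand of leukocyte integrins, was at 240, 130, 245 and 250 CPM at 24 h, against 364, 349, 710 and 814 CPM at 2 h, and fell by 1.28 (SE 0.24, adjusted p = 0.0013 by edgeR). VCAM1, a further integrin ligand, was at 6.13, 7.01, 0.181 and 0.142 CPM at 24 h, against 9.78, 13.1, 4.25 and 5.92 CPM at 2 h. It was lower at 24 h in all 4 pairs, more so in replicates 3 and 4, and its fall of 2.64 (SE 0.61, adjusted p = 0.006 by edgeR) was not called without the term for replicate number (adjusted p = 0.621). These 3 genes were the called ones among 9 tested (33.3%, against 18.8% of all genes), whose median was -0.357.

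IRF1, the interferon regulatory factor that NF-kB induces, was at 42.3, 48.3, 21.6 and 18.6 CPM at 24 h, against 220, 199, 177 and 148 CPM at 2 h. All 4 libraries at 24 h lay below the lowest at 2 h, and IRF1 fell by 2.60 (SE 0.15, adjusted p = 6.3e-09 by edgeR), against a change of 0.28 (SE 0.14, adjusted p = 0.16) with PBS. Of 9 interferon regulatory factors tested 3 were called (33.3%, against 18.8% of all genes), all falling, at a median of 0.069. IRF4 and IRF8, the other 2, were not called without several single libraries: IRF8 without flagellin 24 h replicate 3 or 4 or flagellin 2 h replicate 3 (adjusted p 0.0656 to 0.0951 by edgeR), and IRF4 without flagellin 24 h replicate 2 or 3 or flagellin 2 h replicate 1 or 2 (adjusted p 0.0619 to 0.0924). Without the term for replicate number the adjusted p was 0.206 for IRF8 and 0.092 for IRF4. Of 44 interferon-stimulated genes tested, 1 rose and 3 fell with flagellin (9.09%, against 18.8% of all genes), at a median of -0.296. With PBS 3 rose and 2 fell (11.4%), at a median of -0.125. SAMHD1, which depletes nucleotides needed by viruses, fell by 1.20 with flagellin (SE 0.15, adjusted p = 3.7e-05 by edgeR) and by 1.45 with PBS (SE 0.15, adjusted p = 1.0e-05). TRIM25, a ubiquitin ligase of the RIG-I pathway, rose by 0.72 with flagellin (SE 0.13) and by 0.78 with PBS (SE 0.13), although the flagellin call was lost without the term for replicate number (adjusted p = 0.0599 by edgeR).

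The 27 genes whose change over time differed between flagellin and PBS included the chemokines CXCL2 and CCL2, the cytokines LIF and CSF1, and 5 of the NF-kB inhibitor group (NFKBIA, NFKBIE, NFKBID, NFKBIZ and TNFAIP3). Others among them, singled out here for their known roles in inflammation, were IRF1, CD83, BIRC3, MAP3K8, TNFAIP2, ZC3H12A and SPATA2, a cofactor of the deubiquitinase CYLD. RND1, which loosens the actin cytoskeleton, had the largest difference of the 27. It was at 17.5, 10.0, 2.05 and 2.16 CPM with flagellin at 24 h, against 254, 226, 131 and 110 CPM at 2 h, and with PBS at 11.8, 12, 1.89 and 2.52 CPM at 24 h, against 21.6, 17.3, 2.98 and 3.56 CPM at 2 h. Both treatments thus ended at similar levels in each set, while only the flagellin libraries at 2 h stood high. The change was -5.04 (SE 0.33) with flagellin and -0.63 (SE 0.30) with PBS, and the difference was -4.40 (SE 0.43, adjusted p = 2.2e-05 by edgeR).

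For IRF1 the difference was -2.89 (SE 0.20, adjusted p = 2.7e-07 by edgeR), for CD83 -3.22 (SE 0.37, adjusted p = 0.00012), for TNFAIP3 -2.70 (SE 0.26, adjusted p = 2.2e-05) and for BIRC3 -1.51 (SE 0.16, adjusted p = 5.3e-05). ITPKC, an inositol trisphosphate kinase, was at 119, 169, 72.9 and 70.1 CPM with flagellin at 24 h, against 367, 365, 358 and 214 CPM at 2 h, and its difference was -1.89 (SE 0.23, adjusted p = 0.00016 by edgeR). ZNF263, a zinc-finger transcription factor, was at 13.7, 11.9, 11.7 and 11.3 CPM with flagellin at 24 h, against 32.3, 29.9, 25.4 and 23.6 CPM at 2 h, while the 8 PBS libraries lay between 9.76 and 12.2 CPM. The flagellin libraries at 24 h lay in or just above that range. SNAI1, a repressor of epithelial genes, was at 2.43, 3.06, 1.02 and 0.851 CPM with flagellin at 24 h, against 11.9, 14.6, 2.78 and 4.19 CPM at 2 h, and its difference was -2.77 (SE 0.46, adjusted p = 0.0063 by edgeR). Its fall with flagellin was not called without the term for replicate number (adjusted p = 0.0739).

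For 3 of the 27, SPON2, ATP2A3 and TXNIP, the change with flagellin was not called, and a called rise with PBS stood against it. TXNIP, which binds thioredoxin and restrains glucose uptake, was at 1148, 1244, 969 and 788 CPM with flagellin at 24 h, against 1357, 1387, 771 and 707 CPM at 2 h. It was lower at 24 h in replicates 1 and 2 and higher in replicates 3 and 4, with a log2 change of 0.01 (SE 0.10). With PBS it was at 1078, 1095, 942 and 708 CPM at 24 h, against 637, 754, 516 and 411 CPM at 2 h, a rise of 0.74 (SE 0.10, adjusted p = 7.8e-05 by edgeR). The 24 h levels of both treatments were close in every replicate, and the 2 h levels were not.

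The count of 27 depended on the model. Leaving out the term for replicate number, 6 genes differed: CD83, IRF1, NFKBIE, NFKBID, ZNF263 and SPATA2. Replicates 1 and 2 fitted alone gave 6 genes, replicates 3 and 4 alone gave 77, and DESeq2 gave 54, of which 52 were lower with flagellin. Leaving out any 1 of the 16 libraries gave 21 to 28 genes. The differences of SPON2, ATP2A3, TXNIP, MARCKS and ENSSSCG00000003079 were lost on leaving out most single libraries, with adjusted p of up to 0.158. That of CCL2 was lost without PBS 24 h replicate 1 (adjusted p = 0.0626 by edgeR), and that of CSF1 without flagellin 24 h replicate 4 (0.0547) or PBS 2 h replicate 4 (0.0519). Direct comparisons with PBS give the levels at each end, although they use the same flagellin libraries. Flagellin against PBS called 151 genes at 2 h (1.07%) and 0 (0%) at 24 h by edgeR, where 390 genes (2.75%) had an unadjusted p below 0.05. DESeq2 called 298 at 2 h and 2 at 24 h.

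Several of the factors that cells induce within minutes of many stimuli fell in both treatments. NR4A3, an orphan nuclear receptor, was at 0.847, 0.895, 0.120 and 0.0568 CPM with flagellin at 24 h, against 4.83, 4.03, 31.4 and 19.4 CPM at 2 h. The 24 h libraries of replicates 3 and 4 were at or near the floor, and the groups did not overlap. It fell by 4.92 with flagellin (SE 0.83, adjusted p = 0.00055 by edgeR) and by 4.22 with PBS (SE 0.80, adjusted p = 0.0013). With only the 8 flagellin libraries fitted, its fall with flagellin was not called (adjusted p = 0.08 by edgeR). FOSB, a subunit of AP-1, was at 4.49, 10.6, 0.782 and 0.823 CPM with flagellin at 24 h, against 24.7, 52.8, 49.0 and 36.8 CPM at 2 h. Its fall of 3.83 (SE 0.57, adjusted p = 0.00018 by edgeR) stood beside a fall of 3.27 (SE 0.56, adjusted p = 0.00056) with PBS. NR4A1 fell by 2.95 with flagellin (SE 0.35, adjusted p = 1.8e-05) and by 2.02 with PBS (SE 0.34, adjusted p = 0.00046 by edgeR). FOS fell by 1.64 and 1.44 and ATF3 by 1.44 and 1.29 with flagellin and PBS. EGR1, a growth-factor-induced zinc-finger factor, was not called in either treatment, with changes of -0.27 (SE 0.26) and 0.46 (SE 0.26).

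Of 26 immediate early factors tested, 8 fell and 1 rose with flagellin, at a median of -0.509. With PBS 7 were called, all falling, at a median of -0.310. The called share was 34.6% with flagellin and 26.9% with PBS, against 18.8% and 22.5% of all genes. Without the 2 libraries low in ciliated markers the flagellin comparison called 18 of the 26, and replicates 3 and 4 alone called 17, against 5 for replicates 1 and 2 alone. DIO2, the deiodinase that activates thyroid hormone, fell likewise. It was at 1.27, 2.31, 0.632 and 0.766 CPM with flagellin at 24 h, against 20.4, 33.4, 11 and 9.37 CPM at 2 h, and fell by 3.93 with flagellin (SE 0.40, adjusted p = 4.0e-06 by edgeR) and by 3.89 with PBS (SE 0.39, adjusted p = 6.6e-06). STEAP4, a metalloreductase of the plasma membrane, was at 6.33, 0.970, 1.93 and 1.19 CPM with flagellin at 24 h, against 26.6, 21.3, 19.7 and 10.5 CPM at 2 h. It fell by 3.13 (SE 0.47, adjusted p = 0.00018 by edgeR) with flagellin and by 1.31 (SE 0.44, adjusted p = 0.038) with PBS. In replicates 1 and 2 alone its fall with flagellin was not called (adjusted p = 0.0864).

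Among brakes on mRNA and on kinases, ZC3H12A was at 143, 119, 63.2 and 50.9 CPM at 24 h, against 381, 345, 261 and 241 CPM at 2 h, and fell by 1.82 (SE 0.19, adjusted p = 5.3e-06 by edgeR), against a change of 0.06 (SE 0.19) with PBS. The groups did not overlap. ZFP36, which binds AU-rich elements of cytokine mRNAs, was at 260, 354, 109 and 106 CPM at 24 h, against 484, 602, 364 and 230 CPM at 2 h. It was lower in all 4 pairs and the groups overlapped, and its fall of 1.13 (SE 0.19, adjusted p = 0.00048 by edgeR) was not called without the term for replicate number (adjusted p = 0.182). Of 15 mRNA decay regulators tested 4 were called with flagellin (26.7%, against 18.8% of all genes), all falling, at a median of -0.024. Of 14 dual-specificity phosphatases 5 were called (35.7%, against 18.8% of all genes), all falling, at a median of -0.324. DUSP1, which inactivates p38 and JNK, fell by 0.65 with flagellin (SE 0.15, adjusted p = 0.0059 by edgeR) and by 0.69 with PBS (SE 0.15, adjusted p = 0.0033). SOCS3, the brake of STAT3, was at 2.57 ± 0.836 CPM at 24 h and 5.08 ± 1.69 CPM at 2 h (SD, n = 4 each). Its call was lost without any 1 of 7 of the 8 libraries (all but flagellin 2 h replicate 1; adjusted p 0.0523 to 0.148 by edgeR) and without the term for replicate number (0.178).

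Of 11 genes of the urokinase system, which clears fibrin and matrix, 3 fell and 1 rose with flagellin, at a median of -0.158. The called share was 36.4%, against 18.8% of all genes. PLAU, urokinase, was at 885, 847, 287 and 250 CPM at 24 h, against 1058, 1130, 1259 and 1079 CPM at 2 h. The 2 h libraries were alike, and at 24 h replicates 3 and 4 lay below replicates 1 and 2. PLAU fell by 1.22 (SE 0.29, adjusted p = 0.007 by edgeR), a call lost without the term for replicate number (adjusted p = 0.14), and its receptor PLAUR fell by 1.03 (SE 0.24, adjusted p = 0.0063). PTGS2, the inducible prostaglandin synthase, was at 77.9, 284, 77.8 and 73.6 CPM at 24 h, against 82.5, 92.8, 325 and 299 CPM at 2 h. Replicate 2 was high at 24 h and replicates 3 and 4 were high at 2 h, and the change of -0.46 was not called (SE 0.57, adjusted p = 0.61 by edgeR). PTGFR, a prostaglandin receptor, fell by 2.10 with flagellin (SE 0.42, adjusted p = 0.0021) and by 2.20 with PBS (SE 0.42, adjusted p = 0.0012 by edgeR). SOD2, the mitochondrial superoxide dismutase induced by NF-kB, fell by 1.34 with flagellin (SE 0.16, adjusted p = 2.6e-05) and by 0.62 with PBS (SE 0.16, adjusted p = 0.010 by edgeR).

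**Figure D3:**
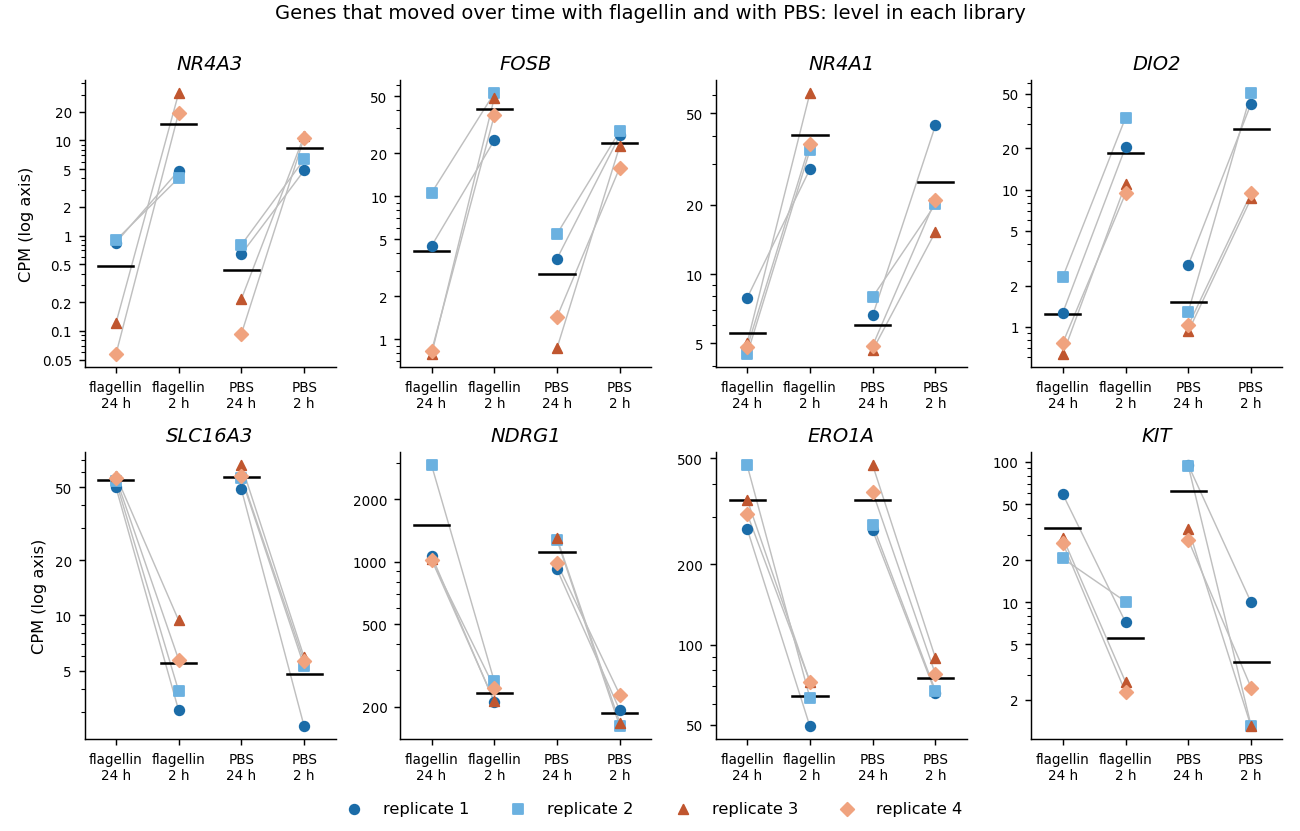
Level of 8 genes that moved over time in both treatments, in CPM on a log axis, for flagellin at 24 h and 2 h and PBS at 24 h and 2 h. Symbols mark the 4 replicates, grey lines join libraries of the same number and black bars are group means. NR4A3, FOSB, NR4A1 and DIO2 are lower at 24 h than at 2 h in every pair of both treatments, and SLC16A3, NDRG1, ERO1A and KIT are higher.

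The genes that rose with flagellin were led by those of glycolysis and low oxygen, and they rose with PBS too. SLC16A3, the lactate exporter of glycolytic cells, was at 50, 53.8, 57.8 and 56.0 CPM with flagellin at 24 h, against 3.04, 3.88, 9.40 and 5.75 CPM at 2 h. Without any overlap of the groups, it rose by 3.41 with flagellin (SE 0.24, adjusted p = 5.5e-08 by edgeR) and by 3.60 with PBS (SE 0.24, adjusted p = 1.3e-07). NDRG1, a stress protein and classic target of low oxygen, was at 1070, 2920, 1025 and 1023 CPM with flagellin at 24 h, against 211, 265, 213 and 247 CPM at 2 h. Replicate 2 stood above the other 3 at 24 h, with no overlap between the groups, and NDRG1 rose by 2.64 with flagellin (SE 0.30, adjusted p = 1.3e-05 by edgeR) and by 2.58 with PBS (SE 0.30). ERO1A, the oxidase that forms disulfide bonds in the endoplasmic reticulum, was at 272, 470, 349 and 309 CPM with flagellin at 24 h, against 49.4, 63.1, 72.5 and 72.7 CPM at 2 h. It rose by 2.46 with flagellin (SE 0.19, adjusted p = 1.4e-07 by edgeR) and by 2.20 with PBS (SE 0.19). EGLN3, the prolyl hydroxylase that marks HIF for destruction and is itself a HIF target, rose by 2.08 with flagellin (SE 0.23, adjusted p = 9.9e-06) and by 1.80 with PBS (SE 0.23).

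Of 34 glycolysis and hypoxia targets tested, 24 rose and 1 fell with flagellin, at a median of 0.678, against 9.54% raised and a median of -0.003 over all genes tested. With PBS 25 rose and 2 fell, at a median of 0.743. Without the term for replicate number 20 of the 34 were called with flagellin, and each set alone called 20 (replicates 1 and 2) and 27 (replicates 3 and 4). PDK1, which closes the entry of pyruvate to mitochondria, rose by 1.30, ALDOC by 1.51, P4HA1 by 1.26 and PGK1 by 0.86, and the same genes rose with PBS by 1.03, 1.46, 1.20 and 0.77. The mean level of the 34 genes, on the log2(CPM + 0.5) scale, was 7.79, 8.21, 8.02 and 7.95 with flagellin at 24 h, against 6.98, 7.04, 7.43 and 7.38 at 2 h. It was 7.74 to 8.08 with PBS at 24 h and 6.92 to 7.26 at 2 h. EPAS1, the gene of HIF-2 alpha, was the 1 that fell with flagellin, by 0.48 (SE 0.12, adjusted p = 0.013 by edgeR), and it fell by 0.78 with PBS.

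Other strongly raised genes were shared by the treatments in most cases. STC1, a hormone of calcium balance, rose by 3.36 with flagellin (SE 0.49) and by 3.29 with PBS (SE 0.51), STC2 by 1.86 (SE 0.18) and 1.48 (SE 0.18), NDUFA4L2, a mitochondrial HIF target, by 2.54 (SE 0.59) and 2.37 (SE 0.60), and the zinc-finger gene ZNF395 by 2.08 (SE 0.29) and 2.16 (SE 0.29). NXPH4 and SYCP2, of low level, rose by 2.79 (SE 0.44) and 2.24 (SE 0.39) with flagellin and by 3.33 (SE 0.45) and 1.37 (SE 0.38) with PBS. KIT, the stem cell factor receptor, was at 58.8, 20.5, 28.8 and 26.3 CPM with flagellin at 24 h, against 7.17, 10.1, 2.69 and 2.27 CPM at 2 h. It rose by 2.84 (SE 0.59, adjusted p = 0.0031 by edgeR), and by 4.13 with PBS (SE 0.63). CCN3, a secreted matrix protein, rose by 2.51 (SE 0.36, adjusted p = 0.00012) with flagellin and by 3.04 (SE 0.36) with PBS. KLK12, a kallikrein protease of stratified epithelia, was at 9.41, 48.4, 3.82 and 2.89 CPM with flagellin at 24 h, against 3.81, 8.39, 0.469 and 0.0566 CPM at 2 h. It rose in every pair by a fitted 2.88 (SE 0.77, adjusted p = 0.014 by edgeR), with a change of 0.04 (SE 0.74) with PBS and a difference of 2.85 that was not called (adjusted p = 0.88). In replicates 1 and 2 alone KIT, KLK12, NDUFA4L2 and SYCP2 were not called (adjusted p 0.157, 0.192, 0.192 and 0.0588 by edgeR). KIT, CCN3 and KLK12 were not called without the term for replicate number (adjusted p 0.0601, 0.0759 and 0.424).

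**Figure D4:**
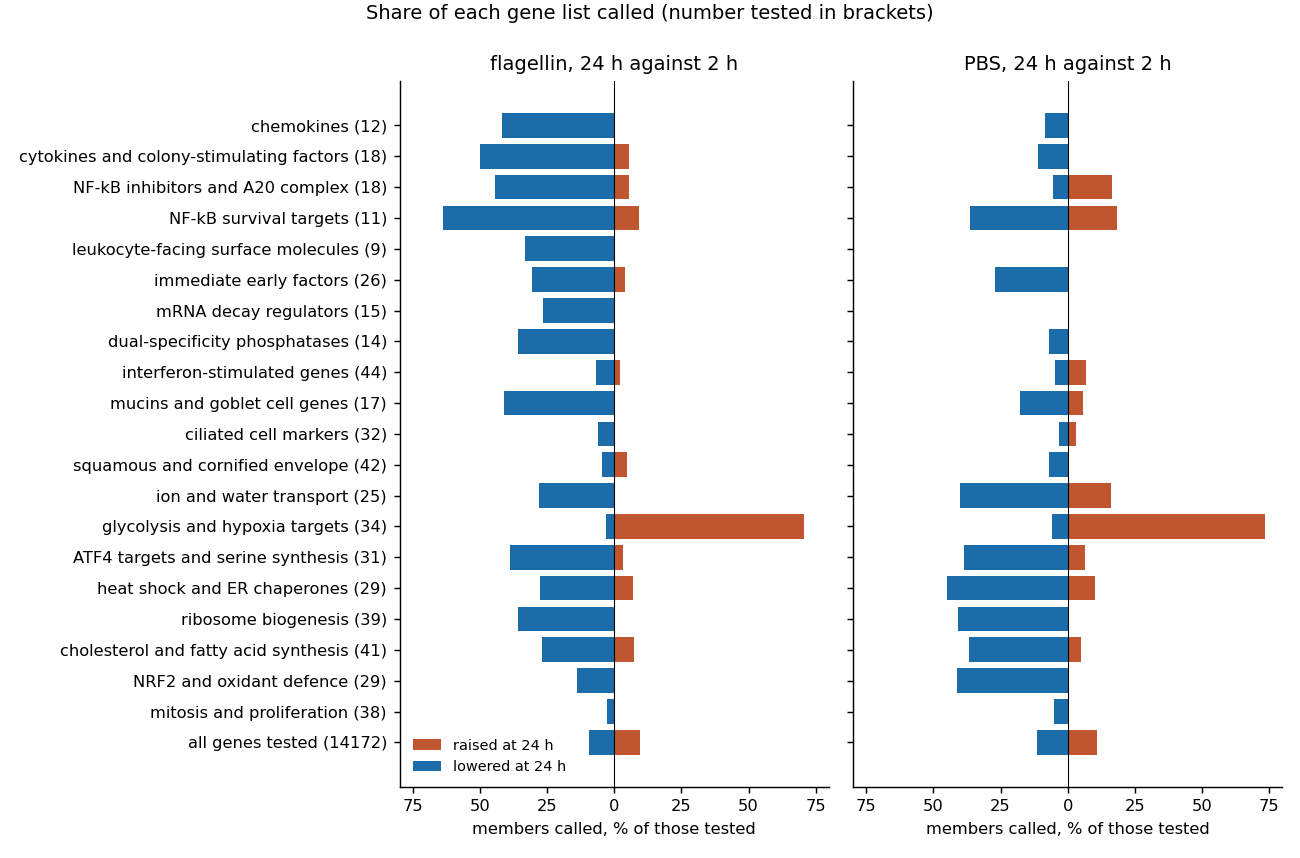
Share of the tested members of 20 gene lists, and of all genes tested, that were called raised (right) or lowered (left) at 24 h relative to 2 h, with flagellin in the left panel and with PBS in the right panel. Glycolysis and hypoxia targets were mostly raised in both panels, while chemokines, cytokines and NF-kB lists had larger lowered shares with flagellin than with PBS.

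Of 39 ribosome biogenesis genes tested 14 were called with flagellin (35.9%, against 18.8% of all genes), all falling, at a median of -0.267, and 16 with PBS, all falling, at a median of -0.362. NCL, nucleolin, fell by 0.39 with flagellin (SE 0.09, adjusted p = 0.0063 by edgeR) and by 0.47 with PBS (SE 0.09), and NOP56, a box C/D snoRNP protein, fell by 0.58 (SE 0.13) and 0.64 (SE 0.13). Without the term for replicate number 3 of the 39 were called with flagellin, and without the 2 libraries low in ciliated markers 7 were. Of 31 ATF4 targets and serine synthesis genes, 12 fell and 1 rose with flagellin (41.9%, against 18.8% of all genes). With PBS 12 fell and 2 rose (45.2%, against 22.5% of all genes). The median was -0.237 with flagellin and -0.234 with PBS. NUPR1, a small stress-induced nuclear protein, was at 239, 138, 27.1 and 40.6 CPM with flagellin at 24 h, against 609, 559, 197 and 116 CPM at 2 h, and fell by 1.96 (SE 0.26, adjusted p = 4.6e-05 by edgeR). The sets differed in level, so the groups overlapped although every pair fell, and the call was lost without the term for replicate number (adjusted p = 0.302). TRIB3, a pseudokinase of the same pathway, fell by 1.13 (SE 0.15, adjusted p = 4.9e-05 by edgeR). STC2 was the 1 ATF4 target that rose.

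Of 29 heat shock and endoplasmic reticulum chaperones, 8 fell and 2 rose with flagellin (34.5%, against 18.8% of all genes). With PBS 13 fell and 3 rose (55.2%, against 22.5% of all genes). The median was -0.134 with flagellin and -0.227 with PBS. HSPA8, the constitutive HSP70, fell by 0.67 with flagellin (SE 0.14, adjusted p = 0.0022 by edgeR) and by 0.87 with PBS (SE 0.14). HSPA1L, a related HSP70, rose by 1.55 with flagellin (SE 0.36) and by 1.41 with PBS (SE 0.36). Of 41 cholesterol and fatty acid synthesis genes, 11 fell and 3 rose with flagellin (34.1%, against 18.8% of all genes). With PBS 15 fell and 2 rose (41.5%, against 22.5% of all genes). The median was -0.167 with flagellin and -0.276 with PBS. HSD17B7, a late enzyme of cholesterol synthesis, was at 15.2, 18.8, 13.5 and 13.8 CPM with flagellin at 24 h, against 34.1, 34.0, 27.2 and 27.6 CPM at 2 h, with no overlap, and fell by 1.00 (SE 0.14, adjusted p = 8.4e-05 by edgeR). SREBF1, the lipogenic regulator, rose by 0.67 with flagellin (SE 0.18) and by 0.59 with PBS (SE 0.18). At 24 h the mean log2 level of the 41 genes was 6.10 in flagellin replicate 2, against 5.53, 5.51 and 5.57 in replicates 1, 3 and 4. At 2 h it was 5.88, 5.95, 5.83 and 5.84. Of 29 NRF2 and oxidant defence genes, 4 were called with flagellin (13.8%, against 18.8% of all genes), all falling, at a median of -0.220, and 12 with PBS, all falling, at a median of -0.540. OSGIN1 and TXNRD1, targets of NRF2, fell by 1.15 and 1.09 with flagellin and by 0.88 and 0.68 with PBS.

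Of 25 ion and water transport genes 7 were called with flagellin (28%, against 18.8% of all genes), all falling, at a median of -0.199, and 10 fell and 4 rose with PBS, at a median of -0.349. CFTR, the chloride channel mutated in cystic fibrosis, was at 59.7, 27.3, 47.7 and 43.4 CPM with flagellin at 24 h, against 98.9, 115, 97.3 and 118 CPM at 2 h. The groups did not overlap, and it fell by 1.29 with flagellin (SE 0.24, adjusted p = 0.0013 by edgeR) and by 0.86 with PBS (adjusted p = 0.016). AQP3, the water and glycerol channel of basal cells, fell by 0.91 with flagellin (SE 0.18) and by 1.35 with PBS (SE 0.19). Among 22 clock genes, 3 rose and 3 fell with flagellin (27.3%, against 18.8% of all genes), at a median of 0.017. BMAL1, the positive arm of the clock, fell by 0.97 with flagellin (SE 0.11, adjusted p = 1.0e-05 by edgeR) and by 0.92 with PBS (SE 0.11), and DBP, an output factor, rose by 1.27 (SE 0.22) and 1.49 (SE 0.22). The DBP call with flagellin was lost without the term for replicate number (adjusted p = 0.061). Of 10 xenobiotic response genes, 3 fell and 1 rose with flagellin (40%, against 18.8% of all genes), at a median of -1.006. CYP1B1, a target of the aryl hydrocarbon receptor, was at 45.2, 40.3, 29.0 and 25.8 CPM with flagellin at 24 h, against 166, 139, 217 and 395 CPM at 2 h, and fell by 2.64 (SE 0.57, adjusted p = 0.0036 by edgeR), against a fall of 3.73 with PBS. Of 27 p53 targets (37% called, against 18.8% of all genes), 5 rose and 5 fell with flagellin, at a median of -0.066. The DNA polymerase gene POLH rose by 1.13 with flagellin (SE 0.18) and 0.74 with PBS, and DDB2, a DNA damage sensor, by 1.02 and 0.80. GDF15, a stress hormone, fell by 1.82 with flagellin (SE 0.22) and 0.76 with PBS, and PMAIP1, a pro-apoptotic BCL2 family protein, by 1.29 (SE 0.15) and 0.46.

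Markers of differentiated airway cells were read beside the library that stood apart. The mean log2(CPM + 0.5) level of 32 ciliated cell genes was 2.07, 1.32, 1.08 and 0.82 in flagellin replicates 1 to 4 at 24 h, against 2.37, 2.39, 1.37 and 0.94 at 2 h. It was lower at 24 h in each pair, and the largest gap was in replicate 2, which was also the 24 h library that stood apart. Of the 32 genes 2 were called with flagellin (6.25%, against 18.8% of all genes), both falling, at a median of -0.664. With PBS 1 rose and 1 fell, at a median of 0.225, where PBS 2 h replicate 2 was low (0.98). Of 17 mucin and goblet cell genes 7 were called with flagellin (41.2%, against 18.8% of all genes), all falling. With PBS 3 fell and 1 rose (23.5%, against 22.5% of all genes). The median was -0.551 with flagellin and -0.119 with PBS. Without the term for replicate number 1 of the 17 was called with flagellin, and without the 2 low libraries 7 were. MUC13, a membrane mucin, was at 40.1, 20.0, 58.3 and 58.5 CPM with flagellin at 24 h, against 78.7, 92.9, 105 and 175 CPM at 2 h. With no overlap between the groups, it fell by 1.39 with flagellin (SE 0.22, adjusted p = 0.00027 by edgeR) and by 1.08 with PBS (SE 0.22). ERN2, the stress sensor of mucus-producing cells, fell by 1.18 (SE 0.21, adjusted p = 0.00078 by edgeR), with a change of -0.04 (SE 0.20) with PBS. For none of the 17 genes, ERN2 included, was the difference between flagellin and PBS called.

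MUC5AC, the secreted mucin of goblet cells, named by position, was at 1310, 264, 333 and 219 CPM with flagellin at 24 h, against 2050, 1753, 542 and 636 CPM at 2 h. It was lower at 24 h in all 4 pairs, most in replicate 2, and the groups overlapped. Its fall of 1.32 (SE 0.35, adjusted p = 0.014 by edgeR) was not called without flagellin 24 h replicate 2 (adjusted p = 0.053) or without the term for replicate number (adjusted p = 0.327). Of 42 squamous and cornified envelope genes, 2 rose and 2 fell with flagellin (9.52%, against 18.8% of all genes), at a median of 0.239. With PBS 3 were called (7.14%), all falling, at a median of -0.385. The mean level of these 42 genes was 5.26, 6.65, 4.74 and 5.03 with flagellin at 24 h, against 5.84, 6.25, 4.89 and 4.19 at 2 h, and replicate 2 was the highest at both times. Of 38 mitosis genes 1 was called with flagellin (2.63%, against 18.8% of all genes), falling, at a median of -0.094. Their mean level was 3.65, 4.57, 2.27 and 2.29 at 24 h, against 3.68, 3.88, 3.19 and 2.62 at 2 h. It was higher at 24 h in replicate 2 and lower in the other 3. The part of these shifts in the other results was not tested.

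**Figure D5:**
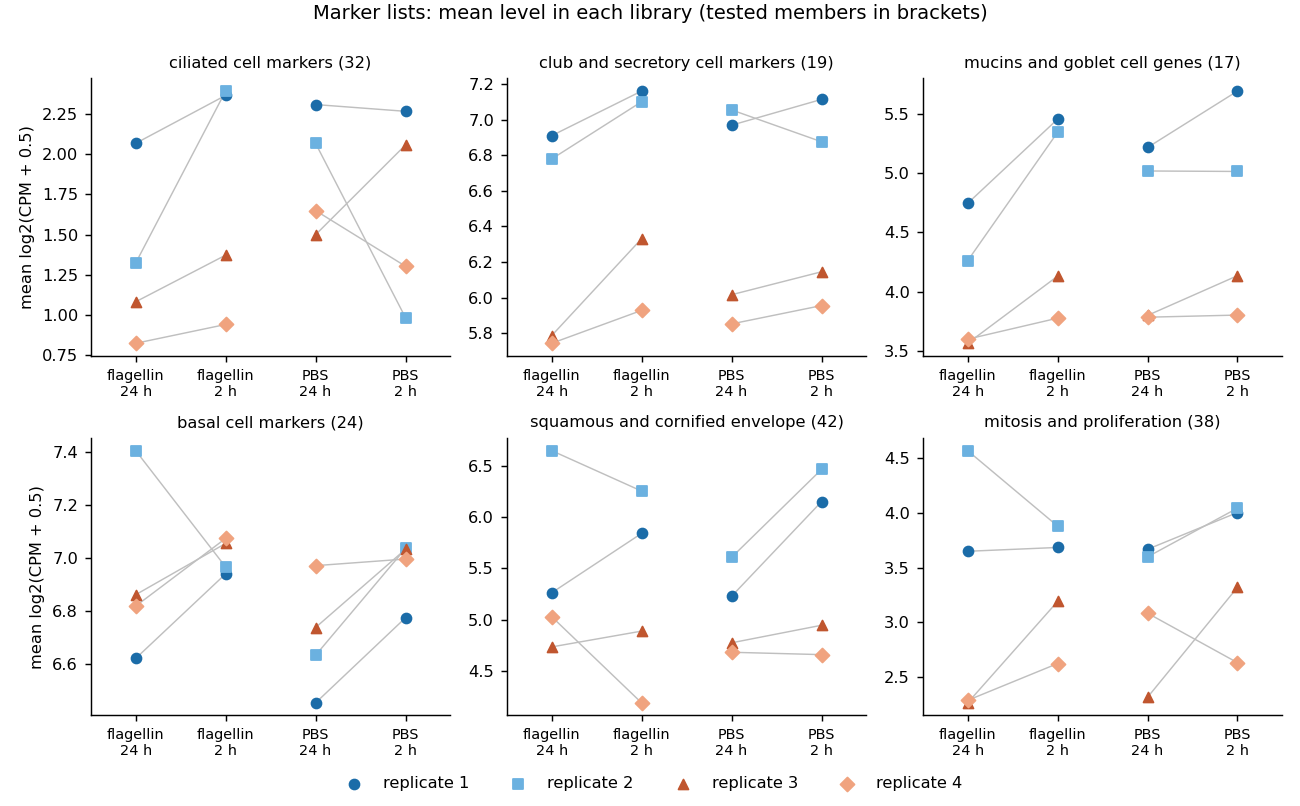
Mean log2(CPM + 0.5) level of 6 marker lists in each library, for flagellin at 24 h and 2 h and PBS at 24 h and 2 h. Symbols mark the 4 replicates and grey lines join libraries of the same number. Replicates 1 and 2 lie above replicates 3 and 4 in the ciliated, secretory, mucin and mitosis lists with flagellin at both times, and flagellin 24 h replicate 2 is low in ciliated genes for its set and highest in the squamous and mitosis lists.

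Of 19 antimicrobial and acute-phase genes tested 3 were called with flagellin (15.8%, against 18.8% of all genes), all falling, at a median of -0.551. SFTPD, the collectin surfactant protein D, was at 104, 81.6, 50.8 and 48.8 CPM with flagellin at 24 h, against 259, 203, 202 and 152 CPM at 2 h, with no overlap, and fell by 1.55 with flagellin (SE 0.34, adjusted p = 0.0041 by edgeR) and by 1.57 with PBS (SE 0.34). CD14, the co-receptor of lipopolysaccharide, fell by 1.46 with flagellin (SE 0.27, adjusted p = 0.0011 by edgeR), a call lost without the term for replicate number (adjusted p = 0.274), and its change with PBS was -0.17 (SE 0.27). The difference between flagellin and PBS was not called for CD14 or any other of the 19 genes. The antibacterial siderophore binder LCN2 was at 146, 23.9, 18.9 and 13.7 CPM with flagellin at 24 h, against 114, 173, 54.8 and 32.6 CPM at 2 h. It was higher at 24 h in replicate 1 and lower in the other 3, and the change of -1.24 was not called (SE 0.45, adjusted p = 0.062 by edgeR). DUOX2, an epithelial hydrogen peroxide source, had means of 7.88 ± 3.68 CPM at 24 h and 7.85 ± 1.90 CPM at 2 h (SD, n = 4 each) and was not called (adjusted p = 0.84 by edgeR).

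The 2 replicate sets differed in how far several early-response genes declined. A test of that difference, in the 8 flagellin libraries alone, called 1029 of 13512 genes (7.62%), but it called between 1 and 4137 when single libraries were left out, so its calls are given as a description of these libraries. CXCL8 was lower at 24 h by 2.18 in replicates 1 and 2, on the log2(CPM + 0.5) scale, and by 5.26 in replicates 3 and 4. The mean log2 difference of 24 h minus 2 h for CCL20 was -2.82 in replicates 1 and 2 and -6.72 in replicates 3 and 4, for VCAM1 -0.75 and -3.06, for PLAU -0.34 and -2.12, and for NFKB1 -0.05 and -1.43. For these genes the decline was larger in replicates 3 and 4. LIF (-3.58 and -4.10), CSF1 (-2.21 and -1.93), NFKBIA (-2.31 and -1.83) and MAP3K8 (-2.78 and -2.68) changed by similar amounts in both sets, and the differences of these 4 were not called (adjusted p 0.348 to 0.988 by edgeR). With 2 libraries of each set at each time, a p that misses the threshold does not show that the sets changed alike.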

How the data were processed

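RNA of porcine bronchial epithelial cultures was sequenced as paired-end total RNA. Per the submitters' processing notes, STAR 2.4.0a and featureCounts of Subread 1.4.6-p1 were used, and GRCm38 is listed as the build; this is a mouse assembly, while the features are pig genes. Which pig assembly and strand setting were used is not stated in these sources. The deposited values are raw read counts per gene, made by the authors without normalization per the file headers. Of 31868 features, 25880 pig genes were kept.

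Counts were tested with edgeR 4.0.16 in R 4.3.3 (glmQLFit robust, glmQLFTest, TMM, filterByExpr) fitted to all 24 libraries with group and replicate number as terms, and Benjamini-Hochberg adjustment. limma 3.58.1 was loaded with it, and DESeq2 1.42.0 was an alternative. Depth was 26345945 to 36267289 pig counts per library. Same-numbered flagellin libraries deviated together (r = 0.508, 0.546, 0.556 and 0.588), as did PBS ones (0.648, 0.423, 0.462 and 0.535), but so did unlike numbers of the same set (0.259 to 0.628). The scripts were tested on simulated data.

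Symbols came from the identifier for 14857 genes, and 1322 were named by position on RefSeq. Genes were named by rule: the 12 raised and 12 lowered called genes of largest change with a symbol by identifier (so not CCL20 or TNF), moved the same way in all 4 pairs with a mean of at least 5 CPM, the 8 largest differences, up to 4 members per list, members with known roles, and key genes. The members, the 44 gene lists and the key genes were chosen with earlier results of these data known. The alternatives were other normalizations, no filter, no replicate term, each replicate set, DESeq2 and each library left out. Leaving out 2 libraries low in ciliated markers was chosen after seeing the data.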

Additional observations from a re-analysis of the deposited data

Results flagged for a closer look

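A single value far from the other 3 is met by chance in about 1 of 20 groups of 4 drawn from 1 normal distribution. Each group here held 2 libraries of each of 2 differing sets, so this rate may not hold. Among the genes and lists examined, 11 such values were found. Many groups were examined, and whether 11 is more than chance gives was not tested. Flagellin 24 h replicate 2 was the library apart in 6 of the 11. It was high for NDRG1 (2920 CPM), MYD88 (203 CPM) and PTGS2 (284 CPM), low for ICAM1 (130 CPM), and high in the mean log2 level of the EGF receptor ligand list (5.741) and the cholesterol and fatty acid synthesis list (6.095). CCL2 was high in flagellin 24 h replicate 1 (13.8 CPM). In the flagellin 2 h group, replicate 4 was apart for NR1D1 (29.9 CPM). It was also apart for the mean log2 level of the NF-kB inhibitor list (6.428) and the prostaglandin list (3.663). IL1B, named by position, was high in replicate 1 of that group (0.0923 CPM), though this is near the floor.

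The change over time differed between flagellin and PBS for 27 genes by edgeR's test of the difference. It differed between replicates 3 and 4 and replicates 1 and 2 for 1029 genes in the flagellin cultures, a count that single libraries decide. Features that are not pig genes, which entered no comparison, made up 16.7 CPM of flagellin 24 h replicate 3, above the 6.09 to 10.1 CPM of the PBS libraries at 24 h. At 2 h they made up 1.4 to 49.5 CPM of the flagellin libraries and 4.36 to 51.4 CPM of the PBS libraries.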

How the results depend on the processing

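Without the replicate block 1120 genes were called with flagellin (2664 with it), 1440 with PBS (3183 with it) and 6 for the difference (27 with it), and each of these was among the calls with the block. Libraries of the other number of the same set also correlated, at r = 0.259 to 0.628. Letting each set have its own level at each time gave 4095 calls with flagellin, and with the groups compared alone 471 with flagellin and 1188 with PBS. Replicates 1 and 2 alone gave 1280, 1865 and 6 calls for flagellin, PBS and the difference, and replicates 3 and 4 alone gave 4128 with flagellin and 77 for the difference. DESeq2 gave 54 for the difference. Leaving out single libraries gave 1879 to 2477 calls with flagellin, 2038 to 3098 with PBS, the lowest without PBS 24 h replicate 2, and 21 to 28 for the difference. The cause of these shifts was not tested.

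For the difference between sets, total-count scaling gave 433 genes, with the median over all genes at 0.144, and DESeq2 gave 1932. Without flagellin 24 h replicates 1 to 4 in turn it called 4137, 2431, 1 and 1 genes, and without flagellin 2 h replicates 1 to 4 in turn 1, 3, 94 and 125. Of the 12 raised and 12 lowered genes named by size, 9 and 11 were called without the block, and all were called whichever single flagellin library was left out. With the groups compared alone 12 and 10 were called, NR4A3 and AMCF-II being lost.

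Changes not called in the main test changed sign for 9 genes, and none was called there either. In replicates 1 and 2 alone the log2 change was 0.014 for NFKB2, 0.977 for PTGS2, 0.159 for EGR1, 0.222 for DUOX2, 0.034 for PER1, 0.43 for NR1D1, 0.372 for MKI67 (named by position) and -0.198 for TXNIP. Without the block it was 0.006 for DUOX2, 0.106 for NR1D1, 0.086 for MKI67 and -0.025 for TXNIP. NR1D1 was at 0.004 with own set levels at each time and 0.061 with the groups alone. Leaving out single libraries gave -0.194 to 0.098 for DUOX2, -0.194 to 0.389 for NR1D1, -0.878 to 0.018 for MKI67, -0.167 to 0.107 for ATP2A3 and -0.069 to 0.098 for TXNIP.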
